A study of Arabidopsis thaliana with 9 samples.

Results

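Cytochrome P450 genes of Arabidopsis thaliana seedlings were compared between riboflavin-treated seedlings, the mutant melinoe and Col-0. The members were the genes whose symbol has the form of a P450 name (CYP, a family number, a subfamily letter and a gene number), with the CYP79 and CYP83 families, CYP71A12 and CYP71A13 left out because they serve glucosinolate and camalexin synthesis. The rule gave 196 of the 24635 genes measured, and 8 P450 symbols were left out by it. Of the 196 members, 190 were in both deposited tables, 4 only in the table with the riboflavin-treated libraries and 2 only in the table with the melinoe libraries. They fall into 37 families, 53 subfamilies and 8 clans, which are groups of families of common descent. The CYP71 clan holds 121 members, the CYP86 clan 30, the CYP85 clan 19, the CYP72 clan 18, the CYP710 clan 4, the CYP97 clan 2, and the CYP51 and CYP711 clans 1 each. A further 19 genes carry a P450 name only as a synonym or as a pseudogene-style symbol, and they are no members.

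Cytochrome P450s are heme enzymes that use molecular oxygen and electrons from NADPH to hydroxylate, epoxidize, desaturate or cleave small molecules. Most plant P450s sit in the endoplasmic reticulum and receive their electrons from a P450 reductase that carries both FAD and FMN, the cofactors made from riboflavin. In seedlings they build and inactivate hormones, make sterols, carotenoids, cutin monomers, phenylpropanoids, triterpenes and defence compounds, and oxidize foreign chemicals.

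Polyadenylated RNA of whole seedlings, 6 days old, was sequenced in strand-specific libraries, with 3 libraries in each of 3 groups. The riboflavin group was wild-type Col-0 given riboflavin for 8 h in the dark part of the day, at 0.6 mM per the sample labels and 0.2 mM per the series description. The melinoe group carried an EMS-induced allele of FMN/FHY (At4g21470), whose product makes FMN from riboflavin and also hydrolyses FMN, and it is 1 mutant line. The Col-0 group was the untreated wild type, grown like melinoe under long days. The hour at which melinoe and Col-0 were collected is not given in the sources used here, so riboflavin and 8 h of darkness cannot be told apart, and the light intensity differs between the descriptions. The 3 libraries of a group are called biological replicates, but nothing says whether they came from separate plates, so p-values measure the spread between these samples.

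Sequence upstream of the genes is shown for the members on which the main comparisons turn, from the TAIR10.1 assembly of RefSeq, the same nuclear build as the TAIR10 of the files. CYP81D8 had the highest level of all members in riboflavin-treated seedlings. Its 300 bases before the annotated start, chr4:17571744-17572043 on the minus strand, are printed 5′ to 3′ with 1 motif in capitals.
CYP81D8: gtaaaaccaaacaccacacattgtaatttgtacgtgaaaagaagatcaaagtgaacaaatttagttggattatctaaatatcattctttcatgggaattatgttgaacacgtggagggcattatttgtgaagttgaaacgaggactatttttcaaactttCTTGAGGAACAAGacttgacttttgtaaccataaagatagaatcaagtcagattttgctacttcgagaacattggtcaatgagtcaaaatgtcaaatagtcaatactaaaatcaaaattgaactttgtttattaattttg
The capitals mark a match to the mitochondrial dysfunction motif, which begins with CTTG and ends with CAAG and is bound by NAC factors of the mitochondrial stress response. Of the 196 members, 1 had this motif within 300 bases upstream on either strand, whereas 0.819% of the 23933 upstream windows of all genes and 3.29% of those of all genes at least doubled with riboflavin had it. The as-1 core TGACG, bound by TGA factors and read on either strand, stood in 21.8% of all windows. With riboflavin it stood in 25.9% of all genes at least doubled and 22.4% of the members tested. It stood in 9 of 30 members at least doubled and in 4 of 13 at least halved. In melinoe it stood in 5 of 14 members at least doubled and in 4 of 9 at least halved. The 5 include CYP71B9, which passed the filter on low counts only through melinoe. Beside these stand 22.6% of the members tested there and 27.2% of all genes at least doubled in melinoe. CYP76C2, CYP81D8, CYP710A1 and CYP710A4, which rose with riboflavin, lack it, and CYP94B3, CYP707A3 and CYP71B22, which fell, have it. The core is shown in capitals, with 24 bases on each side, for 2 members that have it and were higher with riboflavin and 3 that were higher in melinoe.
CYP81D11: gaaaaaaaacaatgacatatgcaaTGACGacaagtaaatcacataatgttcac
CYP72A15: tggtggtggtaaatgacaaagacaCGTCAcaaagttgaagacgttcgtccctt
CYP71B7: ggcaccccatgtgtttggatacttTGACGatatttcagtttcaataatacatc
CYP71B23: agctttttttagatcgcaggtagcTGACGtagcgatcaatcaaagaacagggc
CYP82C2: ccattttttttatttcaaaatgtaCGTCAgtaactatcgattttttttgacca
The windows lie at chr3:10790756-10790808 on the minus strand, chr3:4937066-4937118 on the plus strand, chr1:4466839-4466891 on the plus strand, chr3:9595496-9595548 on the minus strand and chr4:15462161-15462213 on the plus strand. The capitals CGTCA are the same core read on the other strand. The G-box CACGTG, which is also present in the CYP81D8 window, occurred in 6.12% of the members' windows and 7.73% of all windows, and the evening element AAAATATCT in 2.55% of the members' windows and 2.83% of all. No motif overlapped another in the capitals shown, and a match describes the letters of a window and no binding.

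Library totals ran from 20677743 to 21103213 counts with riboflavin, from 19964391 to 20818003 in melinoe and from 20972508 to 21421414 in Col-0. Levels are TPM (transcript abundances scaled to gene length and library size), computed here from the deposited counts and the exon length of each gene in the RefSeq annotation, and fold changes and adjusted p-values are from edgeR on the counts, with a member called at an adjusted p under 0.05. A change given without a unit is a log2 fold change over Col-0, and a negative one means lower than in Col-0. FMN/FHY itself had 126, 127 and 129 TPM with riboflavin, 39.98, 43.1 and 41.8 TPM in melinoe and 47.5, 50.7 and 46.2 TPM in Col-0, and a base change within a transcript is not tested by its level. All 5 green shoot markers and all 10 root markers were detected in every group. The summed green shoot markers, led by the antenna gene CAB1, had 8693 to 8773 TPM with riboflavin, 21310 to 22370 TPM in melinoe and 27740 to 28860 TPM in Col-0. The summed root markers, led by PYK10, had 3206 to 3349 TPM with riboflavin, 3964 to 4060 TPM in melinoe and 3720 to 3754 TPM in Col-0. Most of each sum was PYK10 alone, with means of 3120, 3837 and 3535 TPM in the same order. PYK10 was the only root marker called higher in melinoe, where CASP2, CASP5, MYB36, COBL9 and EXPA7 were called lower. In these bulk samples fewer cells of a type and less RNA per cell cannot be told apart.

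Transcripts of the members summed to a larger share of the transcriptome in both groups than in Col-0. P450 genes that are no members are left out of this sum. The 196 members summed to 4314 ± 45.1 TPM with riboflavin, 3260.0 ± 19.9 TPM in melinoe and 2726 ± 28.7 TPM in Col-0 (SD, n = 3 each), and the libraries of the groups did not overlap. The filter on low counts was passed by 147 members in the comparison of riboflavin with Col-0, by 146 in that of melinoe with Col-0 and by 147 in that of riboflavin with melinoe. The 46 members that passed in none had a mean of at most 0.647 TPM in any group. With riboflavin, 66 of the 147 members tested were higher than in Col-0 and 40 lower, or 72.1% called, against 74.2% of all 20356 genes tested (36.8% higher and 37.4% lower). In melinoe, 55 of 146 were higher and 41 lower, or 65.8% called, against 50.6% of 20277 genes (25.4% higher and 25.2% lower). With DESeq2 26 members were lower in melinoe in place of 41. The median log2 fold change of the members tested was 0.11 with riboflavin and 0.04 in melinoe, beside -0.003 over all genes in both comparisons.

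At least a doubling with riboflavin was called for 30 members (20.4%), against 7.7% of all genes, and at least a halving for 13 (8.84%), against 9.94%. In melinoe 14 members doubled (9.59%), against 3.67% of all genes, and 9 halved (6.16%), against 2.4%. Libraries of riboflavin and Col-0 did not overlap for 73.5% of the members tested, against 75.6% of all genes, and libraries of melinoe and Col-0 for 69.9%, against 56.7%. These shares describe the members that passed the filter and not the whole family. Genes that passed it only through a single group are kept in the shares of the members and of all genes. In melinoe the 14 include CYP71B9, which passed only through melinoe, and the 9 include CYP710A4, which passed only through Col-0.

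The summed levels of the clans differed in direction, and a sum can be led by a single gene. The CYP71 clan, which holds most enzymes of specialized metabolism, summed to 2993 ± 33.8 TPM with riboflavin, 2153 ± 9.05 TPM in melinoe and 1644 ± 19.6 TPM in Col-0. Of its members tested, 46 of 93 were higher and 20 lower with riboflavin, beside 36.8% and 37.4% of all genes. In melinoe 37 of 92 were higher and 28 lower, beside 25.4% and 25.2% of all genes. The same shares of all genes stand beside the counts of smaller groups and lists below that compare with Col-0. The CYP72 clan, which includes enzymes of cytokinin and brassinosteroid metabolism, summed to 648 ± 14 TPM with riboflavin, 427 ± 5.36 TPM in melinoe and 407 ± 4.39 TPM in Col-0. The CYP710 clan of sterol desaturases had 108 ± 1.79 TPM with riboflavin, against 26.1 ± 2.61 TPM in melinoe and 26.3 ± 0.94 TPM in Col-0.

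The CYP86 clan of fatty acid hydroxylases was lower than Col-0 with riboflavin and higher in melinoe. It summed to 205 ± 1.98 TPM with riboflavin, 331 ± 12 TPM in melinoe and 272 ± 8.74 TPM in Col-0. CYP86A2 alone had means of 51.6, 169.6 and 107.6 TPM in the same order, so most of both differences lay in this gene. The CYP85 clan, with enzymes of abscisic acid, brassinosteroid and triterpene metabolism, had 184 ± 4.33 TPM with riboflavin, 117 ± 1.03 TPM in melinoe and 163 ± 2.29 TPM in Col-0. With riboflavin CYP708A2 alone rose by more TPM than this sum, so the sum does not describe the clan's members. CYP707A1, CYP707A2 and CYP707A4 rose too, while CYP707A3, CYP708A3 and the CYP702A genes tested fell. The CYP97 clan of carotenoid hydroxylases had 40.7 ± 1.23 TPM with riboflavin, 61.6 ± 1.68 TPM in melinoe and 71.5 ± 1.63 TPM in Col-0. A single gene makes up each of the last clans. CYP51G1, the sterol 14-demethylase, had 108, 110.1 and 109.7 TPM with riboflavin, 116, 118 and 116 TPM in melinoe and 123, 125 and 120.2 TPM in Col-0, with log2 fold changes over Col-0 of -0.16 (adjusted p = 0.000309) and -0.01 (adjusted p = 0.769). CYP711A1 (MAX1), a strigolactone enzyme, was higher in both groups, by log2 fold changes of 0.45 (adjusted p = 1.35e-07) with riboflavin and 0.54 (adjusted p = 2.07e-08) in melinoe.

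**Figure D1:**
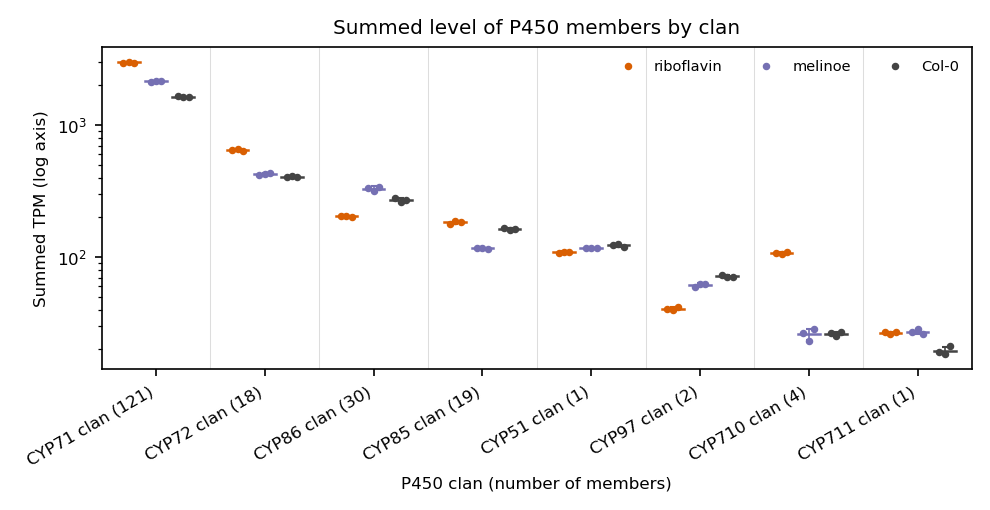
Summed TPM of the members of each P450 clan on a log axis, with a point per library, a bar at the mean and SD error bars (n = 3) for riboflavin-treated Col-0, melinoe and untreated Col-0. The CYP71, CYP72, CYP85 and CYP710 clans have their highest mean with riboflavin. The CYP86 and CYP711 clans have it in melinoe, CYP711 with 27.26 TPM there against 26.64 TPM with riboflavin. The CYP51 and CYP97 clans have it in Col-0.

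The ranking of single members changed with the group. The 5 members with the highest mean TPM with riboflavin were CYP81D8 (403), CYP89A9 (253), CYP72A13 (212), CYP81D11 (190.2) and CYP705A5 (159), and together they held 28.2% of the summed TPM. In melinoe the first 5 were CYP71B7 (214), CYP86A2 (169.6), CYP706A1 (164), CYP89A9 (134) and CYP98A3 (123), with 24.7%. In Col-0 they were CYP89A9 (138), CYP51G1 (123), CYP706A1 (112), CYP86A2 (108) and CYP98A3 (102), with 21.4%. A mean of at least 1 TPM was reached by 132 members with riboflavin, 126 in melinoe and 129 in Col-0. CYP98A3 is the hydroxylase of coumaroyl shikimate in lignin synthesis, and it was called higher in both groups, by 0.46 with riboflavin and 0.32 in melinoe.

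Summed levels differed between subfamilies of the CYP71 clan. The CYP81D subfamily summed to 662 ± 5.47 TPM with riboflavin, against 86.9 ± 3.58 TPM in melinoe and 94.8 ± 4.15 TPM in Col-0, and CYP81D8 made up 60.8% of that sum with riboflavin. The CYP76C subfamily had 52.5 ± 0.51 TPM with riboflavin, 5.3 ± 0.28 TPM in melinoe and 5.98 ± 0.19 TPM in Col-0. Most of its sum with riboflavin was CYP76C2, which averaged 45.8 TPM there, 1.17 TPM in melinoe and 0.757 TPM in Col-0. The CYP89A subfamily had 434 ± 8.78 TPM with riboflavin, 203 ± 3.12 TPM in melinoe and 205 ± 3.49 TPM in Col-0. By contrast the CYP71B subfamily, the one with the most members, had 679 ± 6.53 TPM with riboflavin, 955 ± 16 TPM in melinoe and 546 ± 6.26 TPM in Col-0. Of its 23 members tested, 11 were higher and 9 lower with riboflavin, and 13 were higher and 4 lower in melinoe. In the CYP705A subfamily, 8 of 20 members tested were higher and 3 lower with riboflavin, and 4 were higher and 12 lower in melinoe. As shares, 47.8% of the CYP71B members and 40.0% of the CYP705A members tested were higher with riboflavin, beside 36.8% of all genes, and 39.1% and 15.0% were lower, beside 37.4%. In melinoe 56.5% of the CYP71B members and 4 of the 20 CYP705A members were higher, beside 25.4% of all genes, and 17.4% and 12 of 20 were lower, beside 25.2%. The CYP71B members counted as higher there include CYP71B9, which passed the filter only through melinoe.

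**Figure D2:**
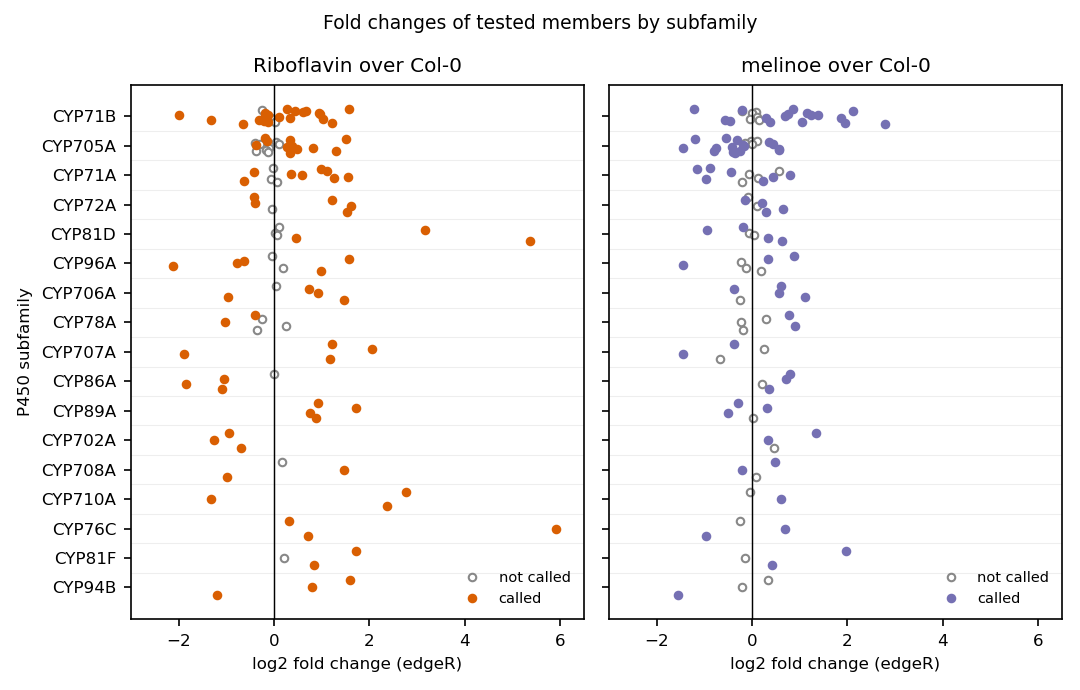
Log2 fold change over Col-0 of each tested member, by subfamily with at least 3 members tested in both comparisons, for riboflavin (left) and melinoe (right). Filled points are members called at an adjusted p under 0.05. CYP81D, CYP76C and CYP710A hold the points farthest to the right with riboflavin, up to 5.92. In melinoe CYP71B reaches 2.79 with CYP71B9, which is at low counts and passed the filter only through melinoe. The melinoe point of CYP710A4 (-3.53) lies beyond the left end of the axis and is not drawn.

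The largest rises with riboflavin included P450s known for responses to foreign chemicals. All 4 tested members of that list rose with riboflavin, and in melinoe 2 rose and 1 fell. CYP81D8, a gene induced by xenobiotics and reactive oxygen at chr4:17569740-17571743, had 401, 405 and 402 TPM with riboflavin, 14.8, 14.5 and 14 TPM in melinoe and 10.2, 8.36 and 10.5 TPM in Col-0. All riboflavin libraries lay far above the others, and the melinoe libraries lay above those of Col-0. The log2 fold change over Col-0 was 5.38 ± 0.054 (SE, adjusted p = 3.2e-31) with riboflavin and 0.63 ± 0.082 (SE, adjusted p = 2.52e-07) in melinoe. CYP76C2, whose protein oxidizes monoterpenols and phenylurea herbicides, had 44.8, 46.5 and 46.2 TPM with riboflavin, against 0.94, 0.66 and 0.67 TPM in Col-0. Its log2 fold change of 5.92 ± 0.092 (SE, adjusted p = 2.52e-27) was the highest of the members named. In melinoe it had 1.2, 1.3 and 1.02 TPM, and its call there (log2 fold change 0.69, adjusted p = 0.0129) was lost with DESeq2 (adjusted p = 0.0926) and without melinoe library B (adjusted p = 0.0576), Col-0 library B (adjusted p = 0.053) or Col-0 library C (adjusted p = 0.0547).

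CYP81D11, which responds to cis-jasmone and to xenobiotics, moved in opposite directions. It had 191, 194 and 185 TPM with riboflavin, 11.8, 9.43 and 10.8 TPM in melinoe and 22.5, 20.2 and 21.3 TPM in Col-0, with no overlap between any of the groups. The log2 fold change was 3.16 ± 0.047 (SE, adjusted p = 1.11e-27) with riboflavin and -0.94 ± 0.079 (SE, adjusted p = 6.98e-11) in melinoe. CYP81G1 had 11.1, 9.21 and 10.1 TPM with riboflavin, 2.39, 1.91 and 1.91 TPM in melinoe and 0.9, 1.04 and 0.61 TPM in Col-0, and it was called higher in both groups, by 3.57 and 1.33. The other CYP81D members moved less, with CYP81D5 at 0.46 (adjusted p = 6.94e-06) and CYP81D1, CYP81D3 and CYP81D4 not called with riboflavin. Of 5 stress response markers outside the family, all rose with riboflavin, by 2.5 to 6.28, and in melinoe, where CYP81D11 fell, 4 rose and UPOX was not called (-0.15, adjusted p = 0.127). The glutathione transferase gene GSTU25 averaged 433 ± 11.3 TPM with riboflavin, 14.7 ± 0.66 TPM in melinoe and 7.81 ± 0.81 TPM in Col-0, and the alternative oxidase gene AOX1A 419 ± 16.2 TPM, 28.2 ± 1.04 TPM and 20.2 ± 1.76 TPM in the same groups (SD, n = 3 each).

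The sterol C-22 desaturases of the CYP710A subfamily, which make stigmasterol, did not move together. CYP710A1 at chr2:14539373-14541617 had 78.9, 80.7 and 83.2 TPM with riboflavin, 10.7, 10.1 and 12.3 TPM in melinoe and 11.8, 11.5 and 12.3 TPM in Col-0. Only the riboflavin libraries stood apart, and the log2 fold change over Col-0 was 2.78 ± 0.05 (SE, adjusted p = 5.4e-26) with riboflavin, against -0.04 (adjusted p = 0.652) in melinoe. Its direct neighbour CYP710A2, at chr2:14535506-14537556 and also able to make brassicasterol, had 4.11, 4.51 and 3.29 TPM with riboflavin, 15.3, 12.9 and 15.7 TPM in melinoe and 10.1, 9.14 and 10.8 TPM in Col-0. It fell with riboflavin by a log2 fold change of -1.33 ± 0.11 (SE, adjusted p = 9.95e-12) and rose in melinoe by 0.6 ± 0.082 (SE, adjusted p = 5.45e-07). The coding sequences of this adjacent pair are 82.7% identical.

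CYP710A4 had 23.7, 21.3 and 23.2 TPM with riboflavin, 0.42, 0.36 and 0.31 TPM in melinoe and 4.61, 4.61 and 4.05 TPM in Col-0. The melinoe libraries lay far below the others, with log2 fold changes over Col-0 of -3.53 ± 0.22 (SE, adjusted p = 9.76e-14) in melinoe and 2.37 ± 0.086 (SE, adjusted p = 3.26e-19) with riboflavin. In melinoe it had 7 to 9 counts per library, so that value is less precise than the others, and it passed the filter only through the other groups. Its neighbour CYP710A3, with 95.8% identity over the coding sequence, stood only in the table with the melinoe libraries, at 0 to 4 counts in melinoe and 0 in Col-0, and did not pass the filter, and how reads were split between these copies is uncertain.

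CYP89A and CYP72A members made up a further block of the rises with riboflavin. CYP89A9, which forms the dioxobilin-type products of chlorophyll breakdown, had 252, 258 and 248 TPM with riboflavin, 134, 133 and 136 TPM in melinoe and 139, 138 and 138 TPM in Col-0. It rose with riboflavin, by 0.88 ± 0.035 (SE, adjusted p = 3.31e-18), and the value in melinoe was 0.01 (adjusted p = 0.793). CYP89A5 had 127, 131 and 129 TPM with riboflavin, against 36.6, 38.1 and 43 TPM in Col-0, and rose by 1.73 ± 0.048 (SE, adjusted p = 6.28e-22). All 4 CYP89A members tested were higher with riboflavin, while in melinoe 1 was higher and 2 lower. The 6 neighbours CYP72A7 to CYP72A13 on chromosome 3 and the pair CYP72A14 and CYP72A15 beside them were mixed. CYP72A15 had 144, 144 and 136 TPM with riboflavin, 47.2, 47 and 48.1 TPM in melinoe and 47.2, 46.5 and 45.2 TPM in Col-0, a log2 fold change of 1.62 ± 0.04 (SE, adjusted p = 6.91e-23) with riboflavin. CYP72A13 (1.21) and CYP72A8 (1.53) rose with riboflavin too, while CYP72A11 (-0.41) and CYP72A14 (-0.39) fell. CYP72A11 and CYP72A13 share 92.9% of their coding sequence and CYP72A11 and CYP72A15 90.4%, so some of their reads could be misassigned. The same holds for CYP89A5 and its neighbour CYP89A6, which are 94.1% identical.

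**Figure D3:**
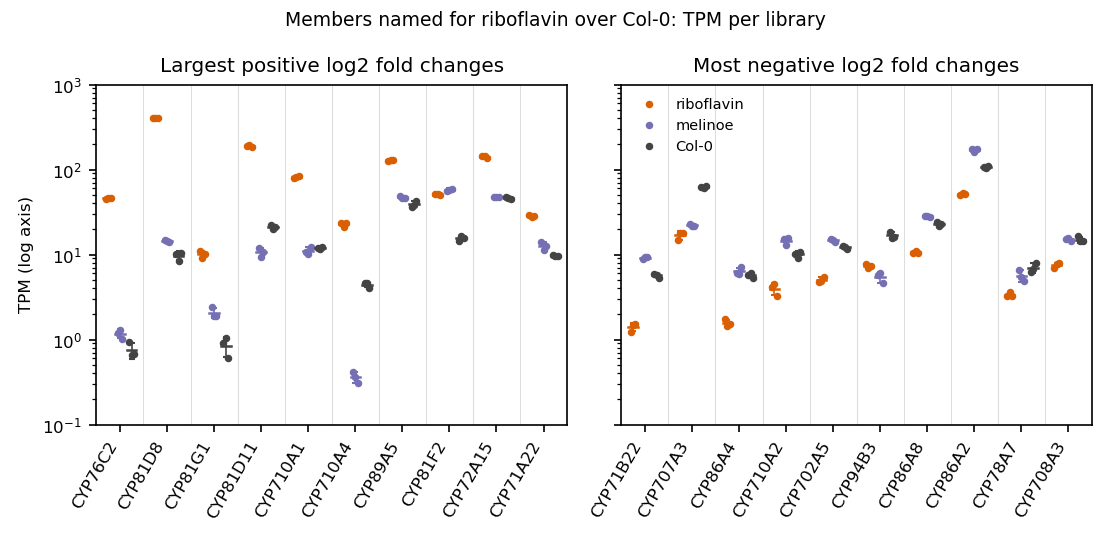
TPM per library, on a log axis, of the 10 members with the largest positive (left) and the 10 with the most negative (right) log2 fold changes with riboflavin among called members with at least 100 counts and no overlap. Points are libraries, short lines are means and error bars are SD (n = 3). Riboflavin libraries lie above Col-0 in every gene of the left panel and below Col-0 in every gene of the right panel.

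The members that fell with riboflavin included enzymes of cutin synthesis. Of 7 tested members of the cutin, suberin, wax and pollen wall list, 1 rose and 4 fell with riboflavin, whereas 4 rose in melinoe and 3 were not called. The list's median log2 fold change was -1.05 with riboflavin and 0.36 in melinoe. CYP86A2 (ATT1), a fatty acid omega-hydroxylase of the shoot cuticle at chr4:160643-163023, had 50.5, 52.8 and 51.6 TPM with riboflavin, 174, 159 and 176 TPM in melinoe and 108, 105 and 109 TPM in Col-0. The riboflavin libraries were the lowest and the melinoe libraries the highest, and the log2 fold change over Col-0 was -1.05 ± 0.039 (SE, adjusted p = 6.57e-19) with riboflavin and 0.72 ± 0.041 (SE, adjusted p = 2.76e-14) in melinoe. CYP86A8 (LACERATA), a related omega-hydroxylase, had 10.5, 10.9 and 10.5 TPM with riboflavin, 28.8, 28.2 and 27.4 TPM in melinoe and 23.8, 21.7 and 22.7 TPM in Col-0. Its log2 fold changes were -1.09 (adjusted p = 1.7e-15) with riboflavin and 0.36 (adjusted p = 6.6e-07) in melinoe.

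CYP86A4, which makes floral cutin monomers together with CYP77A6, fell with riboflavin to 1.74, 1.46 and 1.52 TPM, against 5.79, 6.04 and 5.34 TPM in Col-0, a log2 fold change of -1.85 ± 0.13 (SE, adjusted p = 4.34e-13). CYP77A6 fell as well, by -1.09 (adjusted p = 3.64e-06), and neither was called in melinoe. The enzymes of root suberin behaved otherwise. CYP86A1 had 12.1, 12.4 and 13.2 TPM with riboflavin, 19.97, 20.7 and 22.2 TPM in melinoe and 13.6, 12.4 and 11.9 TPM in Col-0, and it rose in melinoe (0.79, adjusted p = 1.35e-10) and was not called with riboflavin (0.00, adjusted p = 0.995). CYP86B1, which hydroxylates very long chain fatty acids of suberin, rose in both, by 0.52 (adjusted p = 0.00173) with riboflavin and 0.88 (adjusted p = 5.41e-06) in melinoe. CYP704B1, CYP86A7 and CYP96A15 did not pass the filter, and CYP703A2 was not analysed here. CYP77B1, a member of the same clan as CYP77A6, fell with riboflavin, where it had 0.94, 0.69 and 0.7 TPM, beside 6.89, 5.9 and 5.91 TPM in melinoe and 3.53, 4.56 and 3.59 TPM in Col-0.

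The carotenoid ring hydroxylases were lower with riboflavin. CYP97A3 (LUT5) had 16.3, 16.3 and 15.4 TPM with riboflavin, 23.4, 25.7 and 25.5 TPM in melinoe and 33.7, 29.2 and 30.6 TPM in Col-0, and it fell by -0.95 (adjusted p = 5.13e-14) with riboflavin and -0.27 (adjusted p = 0.000269) in melinoe. CYP97B3 fell with riboflavin, by -0.7 (adjusted p = 2.67e-12), and had -0.08 (adjusted p = 0.168) in melinoe. The third carotenoid P450, CYP97C1 (LUT1), is no member because of its symbol, and it fell in both, by -0.53 and -0.3. All 5 green shoot markers fell with riboflavin (log2 fold changes of -1.72 to -0.88) and 4 of 5 in melinoe, and their part in these falls was not tested.

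Members of smaller groups fell with riboflavin too. Among the CYP78A genes, which promote organ growth, 2 of 5 tested (40.0%) fell with riboflavin, a share near the 37.4% of all genes called lower, and 2 rose in melinoe. CYP78A5 (KLUH) fell with riboflavin by -0.39 (adjusted p = 9.38e-05) and rose in melinoe by 0.77 (adjusted p = 1.17e-10), with 8.19, 9.41 and 9.48 TPM with riboflavin, 20.1, 19.9 and 18.5 TPM in melinoe and 12.4, 11.9 and 11.4 TPM in Col-0. CYP78A7, which acts with CYP78A5, fell with riboflavin by -1.03 (adjusted p = 6.83e-09). CYP71B22 had 1.23, 1.49 and 1.51 TPM with riboflavin, 8.92, 9.23 and 9.44 TPM in melinoe and 5.96, 5.72 and 5.36 TPM in Col-0, a fall of -2.00 ± 0.14 (SE, adjusted p = 1.32e-12) with riboflavin and a rise of 0.75 ± 0.093 (SE, adjusted p = 1.25e-07) in melinoe. All 3 CYP702A genes tested, of the CYP85 clan, fell with riboflavin, and 2 of them rose in melinoe. CYP702A5, for example, had 4.79, 4.9 and 5.45 TPM with riboflavin, 15.3, 14.9 and 14.2 TPM in melinoe and 12.7, 12.1 and 11.8 TPM in Col-0. CYP708A3 of the same clan fell with riboflavin by -0.98 (adjusted p = 4.69e-13) and was not called in melinoe.

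In melinoe CYP71B2, CYP71B6, CYP71B7, CYP71B14, CYP71B23, CYP71B24 and CYP71B29 at least doubled, beside 3.67% of all genes. Several of these CYP71B genes are neighbours on a chromosome. CYP71B9, named after its values were seen, also rose but passed the filter only through melinoe, so it is not counted here. It had 18 to 24 counts in melinoe, against 3 in each Col-0 library. Most CYP71B enzymes have no substrate that is firmly assigned. A first run of neighbours on chromosome 1 holds CYP71B2, CYP71B28, CYP71B29 and CYP71B7 with no other protein-coding gene between them. CYP71B7, at chr1:4467094-4469033 and the member with the highest level in melinoe, had 212, 217 and 213 TPM there, against 55.4, 59.95 and 58.6 TPM in Col-0. With riboflavin it had 36.1, 38.7 and 36.4 TPM, below Col-0. The log2 fold change over Col-0 was 1.94 ± 0.042 (SE, adjusted p = 4.25e-24) in melinoe and -0.64 ± 0.048 (SE, adjusted p = 3.25e-12) with riboflavin. CYP71B29 had 28.3, 27.5 and 30.1 TPM in melinoe, against 9.38, 8.26 and 7 TPM in Col-0, a rise of 1.86 ± 0.078 (SE, adjusted p = 1.87e-17). CYP71B2 rose in melinoe by 1.15 ± 0.044 (SE, adjusted p = 3.08e-18), whereas its neighbour CYP71B28 was not called there (0.11, adjusted p = 0.1). Coding identity of CYP71B7 with the most similar member, CYP71B28, is 79.8%.

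A second run on chromosome 3 holds CYP71B22, CYP71B23, CYP71B3 and CYP71B24. CYP71B23 had 43.5, 43.1 and 43.9 TPM with riboflavin, 114, 125 and 121 TPM in melinoe and 48.8, 45.2 and 49.4 TPM in Col-0. The melinoe libraries stood apart, with a log2 fold change over Col-0 of 1.38 ± 0.044 (SE, adjusted p = 4.02e-20). CYP71B24 rose in melinoe by 1.24 ± 0.052 (SE, adjusted p = 2.52e-17). Both were slightly lower than Col-0 with riboflavin (-0.13 and -0.19), and these 2 calls were lost with DESeq2 (adjusted p = 0.0613 and 0.0523). CYP71B3, between them, rose more with riboflavin, where it had 94.6, 97.3 and 94 TPM, beside 57.1, 55.7 and 53.3 TPM in melinoe and 48.6, 47 and 46 TPM in Col-0. Its log2 fold changes were 1.02 (adjusted p = 5.08e-18) with riboflavin and 0.29 (adjusted p = 5.81e-06) in melinoe.

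**Figure D4:**
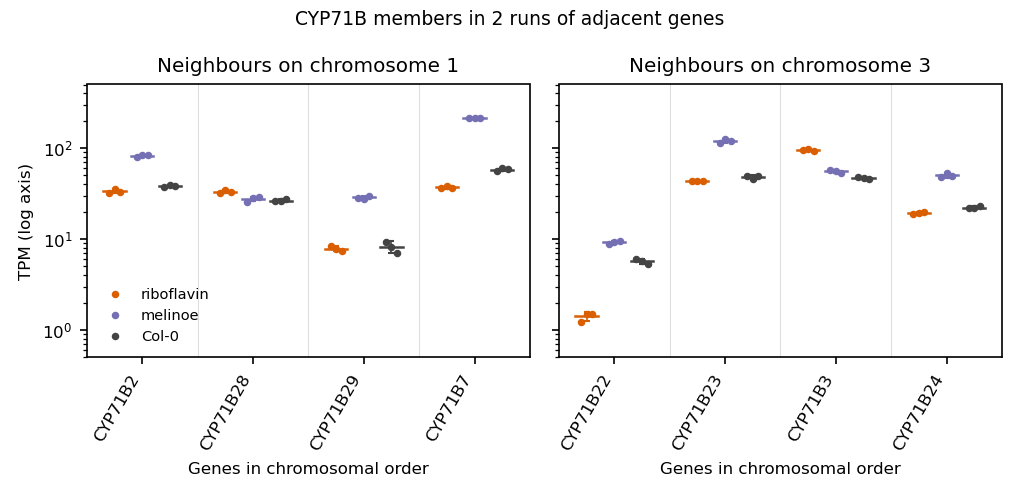
TPM per library, on a log axis, of the CYP71B members in a run of adjacent genes on chromosome 1 (left) and another on chromosome 3 (right), in chromosomal order, with a point per library, lines at the means and SD error bars (n = 3). CYP71B2, CYP71B29, CYP71B7, CYP71B22, CYP71B23 and CYP71B24 are highest in melinoe, while CYP71B28 and CYP71B3 are highest with riboflavin.

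Other CYP71B genes followed no single pattern. CYP71B14 had 7.84, 7.63 and 8.44 TPM in melinoe, against 2.34, 1.82 and 1.59 TPM in Col-0, and rose by 2.11 ± 0.14 (SE, adjusted p = 5.69e-13). With riboflavin it had 2.89, 3.28 and 3.03 TPM, also above Col-0 (0.68, adjusted p = 0.000933). CYP71B6, which converts indole-3-acetonitrile toward indole-3-carboxylic acid, rose in both groups, with 128, 136 and 133 TPM with riboflavin, 113, 110.4 and 116 TPM in melinoe and 56.9, 56 and 57.9 TPM in Col-0. Its log2 fold changes were 1.22 (adjusted p = 3.89e-20) with riboflavin and 1.05 (adjusted p = 5.39e-18) in melinoe. The neighbours CYP71B19 and CYP71B20 rose with riboflavin (0.94 and 0.96) and were not called in melinoe, and as they are 96.2% identical their reads could be split between them. CYP71B4 fell in melinoe, by -0.46 (adjusted p = 2.03e-07).

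P450s of indole defence compounds differed in where they were higher. CYP82C2, which acts in the synthesis of 4-hydroxyindole-3-carbonyl nitrile, had 9.23, 9.68 and 8.71 TPM in melinoe, against 1.58, 1.76 and 2.07 TPM in Col-0, and rose by 2.41 ± 0.12 (SE, adjusted p = 2.38e-15). With riboflavin it had 1.69, 2.2 and 1.36 TPM, which overlapped Col-0, and it was not called (-0.04, adjusted p = 0.87). CYP82C4, 92.8% identical to it and a hydroxylase of coumarins, did not pass the filter. CYP81F2, which hydroxylates indole glucosinolates and by its number stays among the members, had 51.3, 51.4 and 49.6 TPM with riboflavin, 55.9, 57.9 and 59.8 TPM in melinoe and 14.6, 16.3 and 15.5 TPM in Col-0. Its libraries in both groups lay above those of Col-0, with log2 fold changes of 1.72 ± 0.055 (SE, adjusted p = 2.16e-20) with riboflavin and 1.96 ± 0.056 (SE, adjusted p = 2.41e-21) in melinoe. CYP81F4, which hydroxylates another position of the indole ring, rose by 0.85 (adjusted p = 3.86e-15) with riboflavin and 0.41 (adjusted p = 3.73e-08) in melinoe. PAD3 (CYP71B15), the last enzyme of camalexin synthesis and no member because of its symbol, rose with riboflavin by 2.6 (adjusted p = 4.01e-23) and had -0.12 (adjusted p = 0.31) in melinoe.

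Most of the triterpene P450s tested rose with riboflavin and fell in melinoe. Of the 7 members of this list, 5 were tested in both comparisons, of which 4 rose and 1 fell with riboflavin and all 5 fell in melinoe. The thalianol cluster of chromosome 5 holds CYP708A2 (thalianol hydroxylase, chr5:19444103-19447866) and CYP705A5 (thalian-diol desaturase, chr5:19434758-19436749) side by side. CYP705A5 had 157, 159 and 163 TPM with riboflavin, 51.2, 54.1 and 50.1 TPM in melinoe and 65, 66 and 63 TPM in Col-0, and the groups did not overlap. Its log2 fold change over Col-0 was 1.31 ± 0.039 (SE, adjusted p = 4.02e-21) with riboflavin and -0.26 ± 0.044 (SE, adjusted p = 1.82e-05) in melinoe. CYP708A2 had 88.2, 89.9 and 88.5 TPM with riboflavin, 25.5, 26.4 and 27.1 TPM in melinoe and 32.5, 31.5 and 31.8 TPM in Col-0, with log2 fold changes of 1.48 (adjusted p = 1.11e-21) with riboflavin and -0.22 (adjusted p = 0.000429) in melinoe. A further member of the list, CYP716A1, had 0.33, 0.37 and 0.33 TPM with riboflavin, 1.33, 0.83 and 0.82 TPM in melinoe and 0.45, 0.59 and 0.37 TPM in Col-0. It had 7 to 8 counts with riboflavin, 18 to 28 in melinoe and 8 to 13 in Col-0, was not tested with riboflavin and passed the filter in melinoe only through that group, so its call there is not counted.

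The marneral cluster on the same chromosome holds CYP71A16 (marneral oxidase, chr5:17031024-17033800) and CYP705A12 (chr5:17023502-17025361). CYP71A16 had 56.6, 56.2 and 56.5 TPM with riboflavin, 12.6, 12.1 and 12.4 TPM in melinoe and 28.7, 27.2 and 29.8 TPM in Col-0. The riboflavin libraries were the highest and the melinoe libraries the lowest, with log2 fold changes over Col-0 of 0.99 ± 0.048 (SE, adjusted p = 1.7e-16) and -1.15 ± 0.062 (SE, adjusted p = 5.74e-15). CYP705A12 had 33.5, 34.8 and 33 TPM with riboflavin, 4.88, 5.02 and 5.04 TPM in melinoe and 12.5, 11.7 and 11.6 TPM in Col-0, with log2 fold changes of 1.51 (adjusted p = 2.92e-18) and -1.2 (adjusted p = 8.79e-12). Of 3 partner genes of these clusters, looked up after the values of the P450s had been seen, all rose with riboflavin and 2 fell in melinoe. Marneral synthase (MRN1) averaged 72.5 ± 0.91 TPM with riboflavin, 5.73 ± 0.4 TPM in melinoe and 40.1 ± 0.78 TPM in Col-0, and thalianol synthase (THAS1) averaged 68.7 ± 2.94 TPM, 12 ± 0.33 TPM and 19.8 ± 1.24 TPM in these groups (SD, n = 3 each). The acyltransferase gene THAA1 of the thalianol cluster averaged 17.2 ± 1.82 TPM with riboflavin, 6.06 ± 0.12 TPM in melinoe and 6.14 ± 0.66 TPM in Col-0, and it was not called in melinoe (0.04, adjusted p = 0.799).

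CYP705A30 had 25.6, 26 and 24.9 TPM with riboflavin, 5.29, 4.91 and 5.18 TPM in melinoe and 15.9, 14 and 13.8 TPM in Col-0, with log2 fold changes of 0.82 (adjusted p = 6.09e-12) with riboflavin and -1.45 (adjusted p = 1.27e-13) in melinoe. CYP705A1, which cleaves the triterpene arabidiol in roots, fell in melinoe by -0.55 (adjusted p = 2.82e-07). With riboflavin its libraries overlapped those of Col-0, and its call (-0.19, adjusted p = 0.0171) was lost with DESeq2 (adjusted p = 0.0838) and without riboflavin library A (adjusted p = 0.0879), riboflavin library C (adjusted p = 0.107) or Col-0 library C (adjusted p = 0.0516). CYP705A27 rose with riboflavin by 0.28 (adjusted p = 0.00356) and fell in melinoe by -0.42 (adjusted p = 0.000316). Triterpene clusters are known as root-expressed in Arabidopsis. Of the 10 root markers, 1 rose and 6 fell with riboflavin and 1 rose and 5 fell in melinoe, with medians of -0.24 and -0.21, and their part in the triterpene values was not tested. The values of these markers ran from -0.74 to 0.55 with riboflavin and from -0.89 to 0.18 in melinoe.

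**Figure D5:**
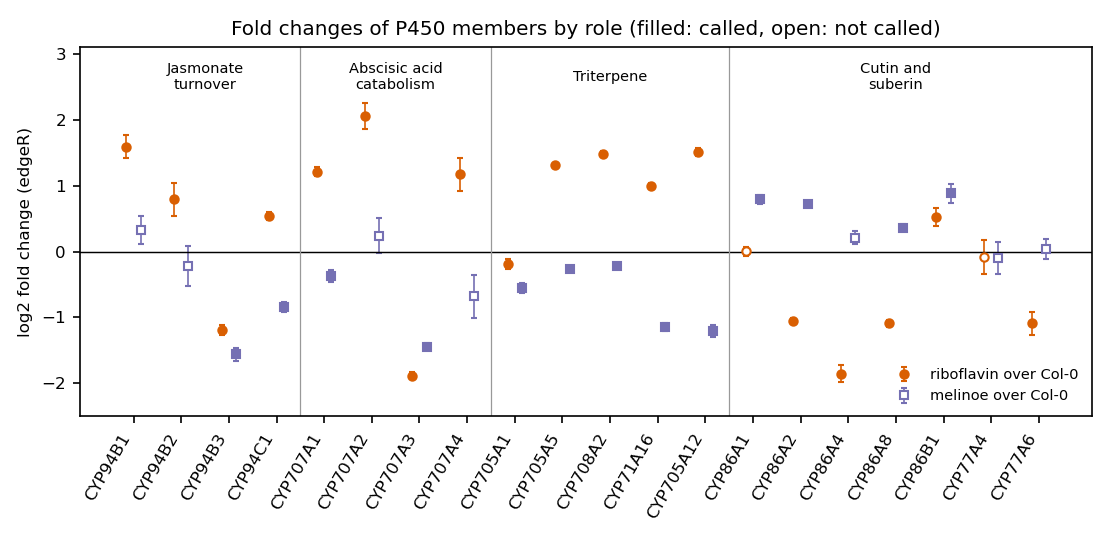
Log2 fold change over Col-0 with its SE for the members of 4 role lists that were tested in both comparisons, with riboflavin (circles) and in melinoe (squares), filled where called at an adjusted p under 0.05. The triterpene members CYP705A5, CYP708A2, CYP71A16 and CYP705A12 lie above 0 with riboflavin and below 0 in melinoe, and CYP86A2 and CYP86A8 lie the other way.

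Enzymes that inactivate jasmonate and abscisic acid split within their own families. CYP94B3, which hydroxylates jasmonoyl-isoleucine, had 7.69, 6.86 and 7.39 TPM with riboflavin, 5.76, 6.06 and 4.58 TPM in melinoe and 18.4, 15.7 and 16.2 TPM in Col-0. It fell in both groups, by -1.19 ± 0.081 (SE, adjusted p = 3.64e-13) with riboflavin and -1.56 ± 0.092 (SE, adjusted p = 4.81e-14) in melinoe. CYP94C1, which oxidizes the hydroxylated hormone further, had 18.3, 19.4 and 19.2 TPM with riboflavin, 6.81, 6.67 and 7.68 TPM in melinoe and 13.9, 12.9 and 12.5 TPM in Col-0, and it rose with riboflavin (0.54, adjusted p = 2.83e-08) and fell in melinoe (-0.84, adjusted p = 1.72e-09). CYP94B1, another hydroxylase of the hormone, rose with riboflavin by 1.59 (adjusted p = 3.11e-09) and was not called in melinoe. CYP94B2 had 0.79 (adjusted p = 0.0071) with riboflavin, and this call was lost without riboflavin library A (adjusted p = 0.0867) or Col-0 library C. Of these 4 genes, 3 rose and 1 fell with riboflavin, and 2 fell and 2 were not called in melinoe. Allene oxide synthase (AOS, CYP74A), a P450 of jasmonate synthesis and no member because of its symbol, rose with riboflavin by 0.56 (adjusted p = 3.65e-13) and fell in melinoe by -1.22 (adjusted p = 5.29e-19).

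The 4 CYP707A genes encode abscisic acid 8′-hydroxylases, and again 3 rose and 1 fell with riboflavin. CYP707A3, the one with the highest level in Col-0, had 14.7, 18.1 and 17.7 TPM with riboflavin, 22.7, 21.5 and 21.8 TPM in melinoe and 62.1, 60.01 and 64.2 TPM in Col-0. Both groups lay below Col-0, with log2 fold changes of -1.88 ± 0.058 (SE, adjusted p = 8.8e-21) with riboflavin and -1.44 ± 0.049 (SE, adjusted p = 1.3e-19) in melinoe. CYP707A1 had 19.4, 19.9 and 19.1 TPM with riboflavin, 5.99, 6.64 and 6.17 TPM in melinoe and 8.38, 8.31 and 8.69 TPM in Col-0, a rise of 1.21 (adjusted p = 3.56e-15) with riboflavin and a fall of -0.37 (adjusted p = 0.000706) in melinoe. CYP707A2, the form known from seeds, rose with riboflavin by 2.05 (adjusted p = 5.52e-10) and CYP707A4 by 1.17 (adjusted p = 0.000126), and neither was called in melinoe. The summed TPM of the CYP707A genes was 40.2 ± 2.18 with riboflavin, 29.3 ± 0.23 in melinoe and 71.8 ± 2.5 in Col-0, and CYP707A3 made up 86.5% of it in Col-0.

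P450s of other hormones were mixed. CYP735A2, which makes trans-zeatin, rose by 0.59 (adjusted p = 6.96e-07) with riboflavin and 0.61 (adjusted p = 9.63e-07) in melinoe, and CYP735A1 was not called in either. Neither member of the brassinosteroid list, CYP90D1 and CYP72C1, was called in a comparison with Col-0. Among the 6 brassinosteroid P450s listed under other symbols, 3 rose and 3 fell with riboflavin, and 1 rose and 1 fell in melinoe. CYP85A1 (BR6OX1), of brassinosteroid synthesis, fell with riboflavin by -1.24 (adjusted p = 9.91e-07) and was not called in melinoe. CPD (CYP90A1), of an earlier step, rose with riboflavin by 0.54 (adjusted p = 2.65e-13) and BAS1 (CYP734A1), which inactivates the hormone, fell in both groups, by -0.88 and -0.87. The gibberellin members CYP88A3, CYP714A1 and CYP714A2 were not called with riboflavin. In melinoe CYP88A3 (-0.2, adjusted p = 0.0323) and CYP714A1 (-0.34, adjusted p = 0.0236) were called lower, and both calls were lost with DESeq2 (adjusted p = 0.136 and 0.126). Of the phenylpropanoid P450s, cinnamate 4-hydroxylase (C4H, CYP73A5), no member by its symbol, rose by 0.81 (adjusted p = 1.24e-17) with riboflavin and 1.01 (adjusted p = 4.11e-19) in melinoe.

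The CYP706A subfamily held near-identical copies with different values. CYP706A1 had 111, 117 and 115 TPM with riboflavin, 164, 161 and 168 TPM in melinoe and 111, 114 and 112 TPM in Col-0, and it was called in melinoe alone of the comparisons with Col-0 (0.61, adjusted p = 1.28e-13). CYP706A2 rose with riboflavin by 0.74 (adjusted p = 7.3e-14) and fell in melinoe by -0.39 (adjusted p = 3.02e-06). The coding sequences of these genes are 97.3% identical, so the split of reads between them is uncertain. In the run CYP706A4 to CYP706A7 on chromosome 4, CYP706A5 had 3.73, 3.28 and 3.34 TPM with riboflavin, 14.1, 13.9 and 13.9 TPM in melinoe and 6.49, 6.45 and 7.29 TPM in Col-0, and fell by -0.96 (adjusted p = 2.72e-09) and rose by 1.11 (adjusted p = 4.07e-13). CYP706A7 rose with riboflavin by 1.48 (adjusted p = 3.04e-13), CYP706A4 rose in both, by 0.93 and 0.56, and CYP706A6 did not pass the filter. CYP71A22 rose in both, by 1.55 with riboflavin and 0.44 in melinoe, as did its neighbour CYP71A21 (0.58 and 0.8), to which it is 91.4% identical.

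Riboflavin-treated seedlings were also set directly against melinoe. Of 147 members tested, 67 were higher with riboflavin and 54 lower, or 82.3% called, against 74.1% of all 20344 genes tested (37.0% higher and 37.1% lower), and libraries did not overlap for 87.1% of them, against 75.4%. At least a doubling was called for 33 members (22.4%), against 7.43% of all genes, and at least a halving for 22 (15.0%), against 9.61%. Among called members whose libraries did not overlap and whose higher group averaged at least 100 counts, CYP710A4 (5.91, adjusted p = 3.24e-25), CYP76C2 (5.24, adjusted p = 1.63e-29), CYP81D8 (4.76, adjusted p = 5.87e-35), CYP81D11 (4.12, adjusted p = 1.58e-31) and CYP710A1 (2.83, adjusted p = 1.82e-27) had the largest positive log2 fold changes of riboflavin over melinoe. CYP77B1 (-3.03, adjusted p = 1.71e-16), CYP71B22 (-2.74, adjusted p = 5e-18), CYP71B7 (-2.57, adjusted p = 6.17e-30), CYP82C2 (-2.43, adjusted p = 1.74e-16) and CYP706A5 (-2.05, adjusted p = 1.22e-19) had the most negative ones within the same limits. CYP710A4, with 7 to 9 counts per melinoe library, passed the filter only through riboflavin. Its value is less precise, and the 33 members at least doubled include it. By role, the 5 triterpene members tested against Col-0 in both groups were higher with riboflavin than in melinoe, and all 4 members of the jasmonate turnover list were higher. Of the cutin and suberin list, 6 of 7 were lower with riboflavin than in melinoe, and of the CYP78A genes 4 of 5. In CYP71B, 10 of 24 tested were higher and 14 lower.

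Redox partners of P450s and the scaffold proteins MSBP1 and MSBP2 had log2 fold changes of -0.8 to 0.76 with riboflavin and -0.44 to 0.45 in melinoe. Of these 11 genes, 54.5% were higher with riboflavin, beside 36.8% of all genes, and 27.3% lower, beside 37.4%. In melinoe 54.5% were higher, beside 25.4% of all genes, and 9.09% lower, beside 25.2%. ATR2, the P450 reductase induced by stress, averaged 199 ± 3.62 TPM with riboflavin, 127 ± 2.22 TPM in melinoe and 118 ± 1.76 TPM in Col-0, with log2 fold changes of 0.76 (adjusted p = 6.14e-17) and 0.16 (adjusted p = 0.00052). ATR1, the other reductase, had 219, 208 and 212 TPM with riboflavin, 206, 212 and 210.3 TPM in melinoe and 214, 206 and 214 TPM in Col-0 and was not called in either (adjusted p = 0.612 and 0.283). MSBP2, a scaffold of monolignol P450s, rose by 0.57 with riboflavin and 0.38 in melinoe.

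Members were also described by position and sequence, which are not independent of a choice by family name. No share over all genes was computed for these counts. Of the 196 members, 96 lay in 31 runs of 2 or more neighbours with no other protein-coding gene between them, and the longest runs held 7. Members of a run could differ in direction with riboflavin, as in CYP710A1 and CYP710A2 or in CYP72A11 and CYP72A13. Another member with at least 90% identity over at least 80% of the coding sequence was found for 29 members, and with at least 95% for 6. Some reads of these members could be misassigned, and CYP702A5, CYP705A30 and CYP706A5 are among them. In the authors' deposited table, at a q-value under 0.05, 64 members were called higher and 30 lower with riboflavin, and 51 higher and 26 lower in melinoe. Of the members called here, 89 of 106 with riboflavin and 75 of 96 in melinoe were called there too. No member called both there and here had opposite signs.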

How the data were processed

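RNA-seq of 9 seedling libraries was used. The expected counts per gene were deposited by the authors. The submitters' processing notes list Bowtie2, RSEM, DESeq2 and TAIR10, whereas SOAPnuke 1.5.2 and HISAT2 2.0.4 stand in the series description, so the aligner behind the counts is not settled. The log2 fold changes and q-values of the authors' comparisons were deposited in the same tables per the file headers, and they were used for 1 count. In the 2 tables, 12 further columns of per-library values were not used. The start of a column name gave the group, and its letter A to C could not be matched to a replicate number of the labels.

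Counts (1.884% not whole) were rounded, and a gene missing from a table was set to 0 in its libraries. TPM was computed from the counts and the union of RefSeq exons (TAIR10.1), without a correction for fragment length. Each comparison was fitted with edgeR 4.0.16 (R 4.3.3) over all genes: filterByExpr (minimum count 10, minimum total 15), TMM, the quasi-likelihood F test and Benjamini-Hochberg adjustment, called at 0.05. The script was tested on simulated data. DESeq2 1.42.0, other scalings and filters, a fit of all libraries, a block by letter and leaving out each library were alternatives. Both comparisons with Col-0 share the Col-0 libraries. Coding sequences were aligned with BLAST+ 2.17.0, and Biopython 1.88, pandas 2.3.3, matplotlib 3.10.9 and Python 3.11.15 were used.

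Candidates for naming were called members whose groups did not overlap and whose higher group averaged 100 counts or more: the 10 at each end of each comparison with Col-0 and the 5 at each end of riboflavin against melinoe. The 5 members with the highest mean TPM per group, the P450s of the role lists, the marker genes and direct neighbours of named members were named too. The members and lists were chosen with earlier results of these data known.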

Additional observations from a re-analysis of the deposited data

How the results depend on the processing

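The counts of called members were 66 higher and 40 lower with riboflavin, 55 and 41 in melinoe, and 67 and 54 for riboflavin over melinoe. With a log2 fold change of at least 1 they were 30 and 13, 14 and 9, and 33 and 22. With DESeq2 the members lower in melinoe were 26 in place of 41, and the cause was not tested. Leaving out 1 library at a time gave 63 to 67 higher and 35 to 38 lower with riboflavin, 51 to 55 and 33 to 37 in melinoe, and 66 to 68 and 50 to 54 for riboflavin over melinoe. The other scalings and filters and the fit of all 9 libraries kept each count within 1.5 times.

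With the column letter as a replicate block the counts were 66 and 39, 55 and 41, and 67 and 54. Deviations of libraries with the same letter correlated at -0.0305 to 0.0435, so the letters were not taken to pair the samples. The replicate numbers of the labels could not be matched to the letters.

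Of the 72 named genes tested per comparison, 8, 8 and 5 crossed the threshold under some alternative, and none changed sign with a call. Beside those named in the text, these were CYP71B4, CYP72C1, CYP81F3 and CYP84A4 with riboflavin, CYP76C1, CYP78A7, CYP84A4, CYP86A4 and CYP91A2 in melinoe, and CYP711A1, CYP78A6, CYP81F3, CYP86B1 and CYP90D1 for riboflavin over melinoe. Summed levels depended on the unit: on the CPM scale of TMM the ratio of all members was 1.24 in melinoe over Col-0 and 1.27 for riboflavin over melinoe, against 1.2 and 1.32 in TPM. For the CYP710 clan the ratio of melinoe over Col-0 was 1.05 by CPM, against 0.993 by TPM. Restricted to members with at least 1 TPM, the CYP85 clan in melinoe summed to 116.1 TPM, against 117.4.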
